A study of Mus musculus with 14 samples.

Results

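The 31 genes described here make, sense, move and remove cholesterol, and they were taken by symbol from a list with 4 roles: 17 genes of cholesterol synthesis, 5 genes of the SREBP system that regulates it, 5 genes of cholesterol transport, storage and turnover, and 4 genes of cholesterol efflux. Of these, 30 were found among the 24444 genes of each expression table, 28 passed the filter on low values in each table, and Hmgcs1 was not analysed here. The filter asked for a mean at least 1 log2 unit above the lowest value of the table, which is about 48.0 normalised counts in the P40 table and 80.1 in the other, and it removed Idi1 and Nr1h3 from both.

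RNA of mouse cortex was sequenced from 14 mice of 2 models, each with its own wild-type group and its own table. The miR29Nestin mice (n = 3) carried floxed alleles of both miR-29 loci, miR-29ab1 and miR-29b2c, and Nestin-Cre, a driver active in neural progenitors, so that cells of other origin, such as vessel and microglial cells, largely keep their miR-29. They were compared at postnatal day 40 (P40) with miR29WT mice (n = 3), for which the labels do not say whether floxed alleles or Cre were present. The Dnmt3a-mi5 mice (n = 4) carried a CRISPR knock-in that mutates the 5 miR-29 binding sites of the 3′ UTR of Dnmt3a, a DNA methyltransferase gene, and kept their own miR-29; they were compared at 4.5 months with Dnmt3a-WT mice (n = 4). The models differ in age, RNA extraction and library kit, so each mutant was compared only with the wild type of its own table, and values of both models are only set side by side.

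Brain cholesterol is made almost entirely within the brain, because lipoproteins of the blood do not cross the blood-brain barrier. When sterols are scarce, Scap escorts the SREBP proteins, encoded by Srebf1 and Srebf2, out of the endoplasmic reticulum to be cleaved, and the cleaved SREBPs switch on genes of sterol and fatty acid synthesis; Insig1 and Insig2 hold Scap back when sterols are plentiful. Oxysterols act the other way round through the liver X receptors (LXR), which switch on efflux genes and Srebf1. MicroRNAs of the miR-29 family pair through their seed, bases 2 to 8, with matching sites in the 3′ UTRs of mRNAs and lower their amount, and SREBP-pathway genes were reported as miR-29 targets in human glioblastoma cells.

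The mature miR-29 sequences deleted in miR29Nestin mice are shown because the members were searched for sites to their shared seed, which is in capitals (RefSeq, GRCm38.p6).
mmu-miR-29a-3p: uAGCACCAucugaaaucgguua
mmu-miR-29b-3p: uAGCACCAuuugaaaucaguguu
mmu-miR-29c-3p: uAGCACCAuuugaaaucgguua
The seed pairs with TGGTGCT, the letters that the knock-in changed to CACGGCT in Dnmt3a. TGGTGCT stood in the longest annotated 3′ UTR (GENCODE M21, GRCm38) of 4 of the 30 members, Fdft1, Cyp51, Insig1 and Soat1, and in 16.7% of the 11561 tested genes of the P40 table that have an annotated 3′ UTR. The 4 sites are shown with their neighbouring bases, the match in capitals.
Fdft1: ccctcagcagccTGGTGCTggctgggact
Cyp51: ctgttgctggagTGGTGCTgcacacctgt
Insig1: gagggaggttgaTGGTGCTtaacagagat
Soat1: gactggaatttcTGGTGCTgtttgtttct
These lie at chr14:63146567-63146595 (minus strand), chr5:4082219-4082247 (minus), chr5:28077187-28077215 (plus) and chr1:156428082-156428110 (minus). A match is a run of letters and was not shown to be bound. Srebf1, Srebf2 and Scap held no match in this window.

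Deposited values were variance-stabilised log2 values, and normalised counts given below are those values transformed back. The spacing of the lowest values implied 9.22 to 14.5 M reads per library in the P40 table, and normalised totals were 10.2 to 10.4 M in the Dnmt3a table, whose depth is unknown. Libraries of a group correlated at 0.995 to 0.999 across genes. Dnmt3a, the gene whose miR-29 sites were mutated in Dnmt3a-mi5 mice, was higher in both mutants, with 5275, 5452 and 5859 normalised counts in miR29Nestin libraries against 1724, 1658 and 1605 in miR29WT libraries, and with 2249, 1958, 2163 and 1948 in Dnmt3a-mi5 libraries against 1200, 1062, 1085 and 1234 in Dnmt3a-WT libraries (log2 differences of 1.63 and 0.70, adjusted p = 8.18e-08 and 0.00153, limma). Cortical neuron markers were present, Slc17a7 averaging 16469 normalised counts in miR29Nestin libraries and 19914 in miR29WT libraries. By the Y-linked genes Kdm5d and Uty, 1 of 3 miR29Nestin libraries and 2 of 3 miR29WT libraries were male, and a sex term changed no call of a member.

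In P40 miR29Nestin cortex, 9 of the 28 members tested fell and 2 rose. The 9 were the synthesis genes Fdps, Fdft1, Lss, Cyp51 and Nsdhl, the regulators Srebf2 and Insig1, the sterol transfer protein gene Stard4 and the cholesterol hydroxylase gene Cyp46a1. The 2 were Srebf1 and the efflux transporter gene Abcg1. Across all 12014 genes tested in this table, 10.0% were called lower, 9.02% higher and 19.1% in either direction (adjusted p under 0.05, limma with Benjamini-Hochberg adjustment over all tested genes). Of the members 39.3% were called. The 9 of 28 called lower are above the share of all genes called lower. The 2 of 28 called higher are not above the share called higher. The members were chosen with earlier results of these data known, so these shares are a description. Without miR29Nestin library 2, miR29WT library 2 or miR29WT library 3 the calls over all genes were 1474, 1384 and 1419 in place of 2289, and the members called lower were 7, 8 and 8 and those called higher 1, 0 and 0. The median log2 difference was -0.09 over the 28 members and -0.0052 over all genes tested; 19 members had negative and 9 positive differences. The miR29Nestin and miR29WT libraries did not overlap for 15 members, 11 lower and 4 higher, where 37.3% of all tested genes did not overlap, 18.7% lower and 18.6% higher. Log2 differences are on the deposited scale, which shrinks the change of weakly expressed genes, and the percentages below are from normalised counts. In bulk tissue, fewer cells of a type and less RNA per cell cannot be told apart.

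**Figure D1:**
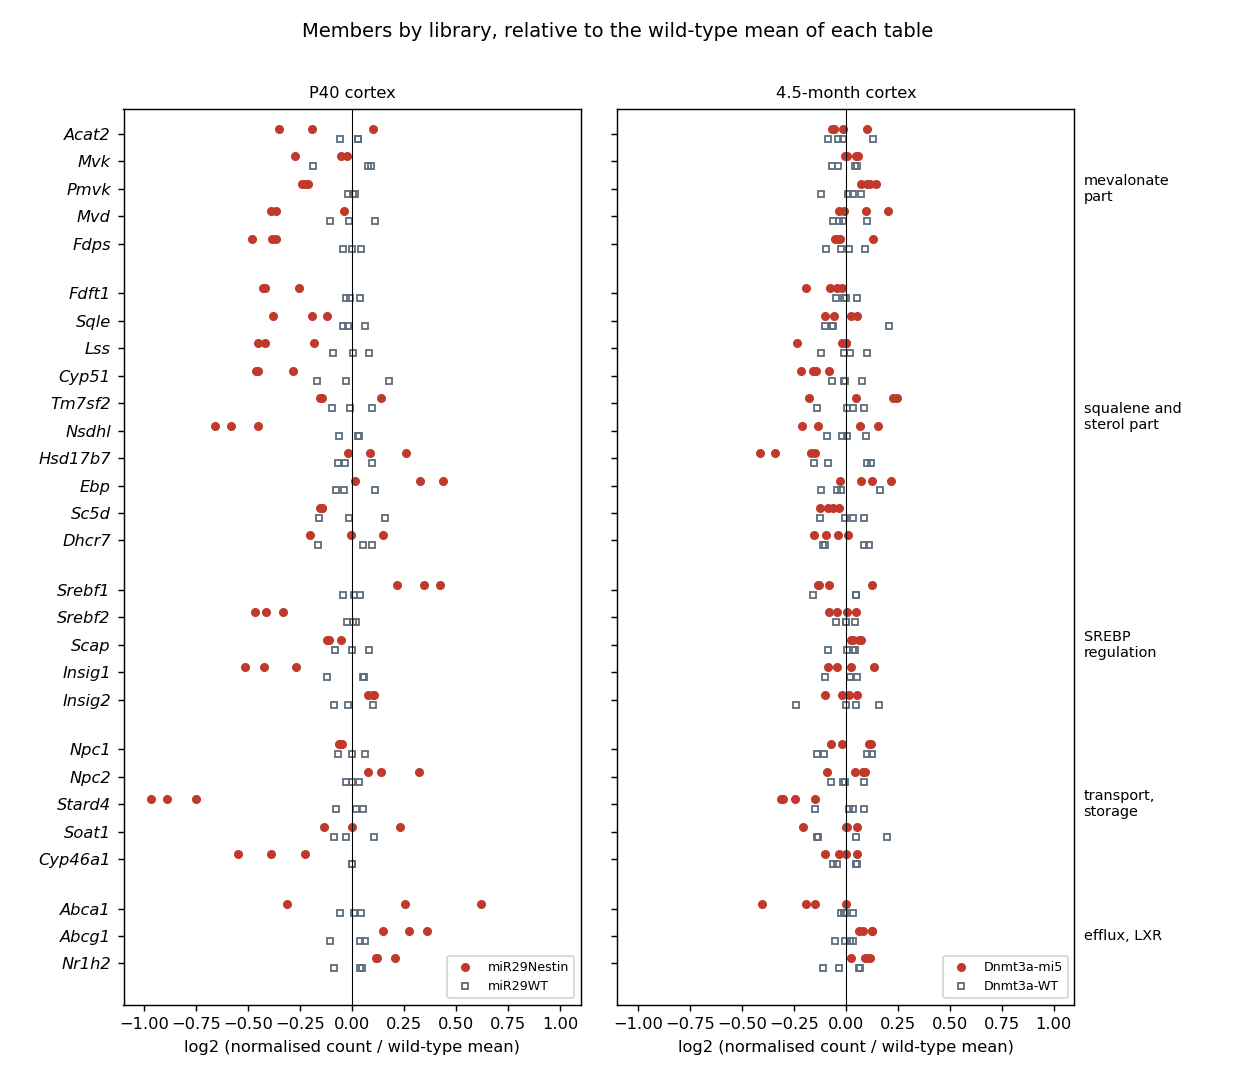
Log2 ratio of each library's normalised count to the mean of the wild-type libraries of its table (horizontal axis) for the 28 tested members, grouped by role; filled circles are mutant libraries and open squares wild-type libraries. In P40 cortex the 3 miR29Nestin circles of 11 members lie left of all their squares and those of 4 members lie right of them, whereas Dnmt3a-mi5 circles are separated from the squares for 3 members.

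The mevalonate steps turn acetyl-CoA into farnesyl diphosphate, and Fdps, the last enzyme of that stretch, fell. Fdps had 381, 352 and 377 normalised counts in miR29Nestin libraries against 477, 491 and 507 in miR29WT libraries, a decrease of 24.8%. The mutant libraries all lay below the wild-type ones, and the log2 difference was -0.30 (SE 0.06, adjusted p = 0.0048). Pmvk, phosphomevalonate kinase, had 382, 379 and 386 normalised counts in miR29Nestin libraries against 442, 452 and 449 in miR29WT libraries. Its groups were narrow and well apart, yet the difference of -0.16 was not called (SE 0.05, adjusted p = 0.0577) except with the stricter filter, which tests fewer genes (0.0481). Mvd, the decarboxylase, averaged 209 ± 29.4 normalised counts in miR29Nestin libraries and 249 ± 18.7 in miR29WT libraries (SD, n = 3 each), and its groups overlapped (log2 difference -0.16, adjusted p = 0.165). The kinase gene Mvk (log2 difference -0.07) and Acat2, which makes acetoacetyl-CoA (-0.10), also overlapped; mouse Acat2 has a near-identical neighbour, Acat3, whose reads could be assigned to either. All 5 tested genes of this stretch had a negative difference and 1 was called. Idi1, which isomerises the isoprene unit, was under the filter and so not tested in the main fit. It had 31.7, 36.1 and 30.8 normalised counts in miR29Nestin libraries against 53.8, 38.9 and 46.6 in miR29WT libraries, without overlap.

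Of the genes of the squalene and sterol steps, 4 of 10 fell. Fdft1, squalene synthase, which commits farnesyl diphosphate to sterols, had 1046, 926 and 932 normalised counts in miR29Nestin libraries against 1282, 1223 and 1238 in miR29WT libraries. The groups did not overlap, and Fdft1 fell by 22.4% (log2 difference -0.32, SE 0.06, adjusted p = 0.0038). Nsdhl, a dehydrogenase that acts in removing methyl groups from the sterol ring, had 287, 248 and 262 normalised counts in miR29Nestin libraries against 400, 375 and 401 in miR29WT libraries. It showed the lowest log2 difference of the synthesis genes (-0.38, SE 0.06, adjusted p = 0.0019), and fell by 32.2%. Cyp51, the lanosterol demethylase, had 734, 648 and 653 normalised counts in miR29Nestin libraries against 875, 1009 and 795 in miR29WT libraries, and fell by 24.1% (log2 difference -0.32, SE 0.08, adjusted p = 0.0146). Its groups were apart, but its wild-type libraries spread widely, and the call was lost without miR29Nestin library 2 (adjusted p = 0.0647) or miR29WT library 2 (0.0630). Lss, lanosterol synthase, which closes the sterol rings, had 380, 372 and 448 normalised counts in miR29Nestin libraries against 511, 478 and 539 in miR29WT libraries, and fell by 21.4% (log2 difference -0.26, SE 0.07, adjusted p = 0.0250). The nearest libraries of both groups were close, and this call was lost without miR29Nestin library 1 (0.0601) or 2 (0.100) and without miR29WT library 1 (0.0598) or 3 (0.100). 

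Sqle, squalene monooxygenase, stood just outside the called set. It had 747, 623 and 711 normalised counts in miR29Nestin libraries against 802, 787 and 847 in miR29WT libraries, with a log2 difference of -0.19 (SE 0.07, adjusted p = 0.0686). The groups did not overlap, and Sqle was called when libraries were paired by replicate number (0.0338, replicate block) and without miR29Nestin library 1 (0.0358). The other enzymes of the squalene and sterol steps did not move together. The reductase genes Tm7sf2 and Dhcr7 and the desaturase gene Sc5d had differences of -0.03, -0.01 and -0.10, while Hsd17b7, a ketoreductase gene, and Ebp, a sterol isomerase gene, had positive ones, 0.07 and 0.16. None of these 5 was called with all libraries, with adjusted p between 0.182 and 0.946; Ebp, whose miR29Nestin libraries ranged between 195 and 261 normalised counts against 183 and 208 in miR29WT libraries, was called without miR29Nestin library 3 (0.0468). Over synthesis as a whole, 5 of 15 tested genes were called lower, none higher, and 13 had negative differences (median -0.16). Of the 15, 7 had an unadjusted p under 0.05, beside 33.0% of all tested genes of this table, and all 7 had negative differences. The summed normalised counts of the 16 synthesis genes in the table were 6448, 5764 and 5977 in miR29Nestin libraries against 7240, 7200 and 7147 in miR29WT libraries, so that the mutant sums all lay below the narrow range of the wild type.

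**Figure D2:**
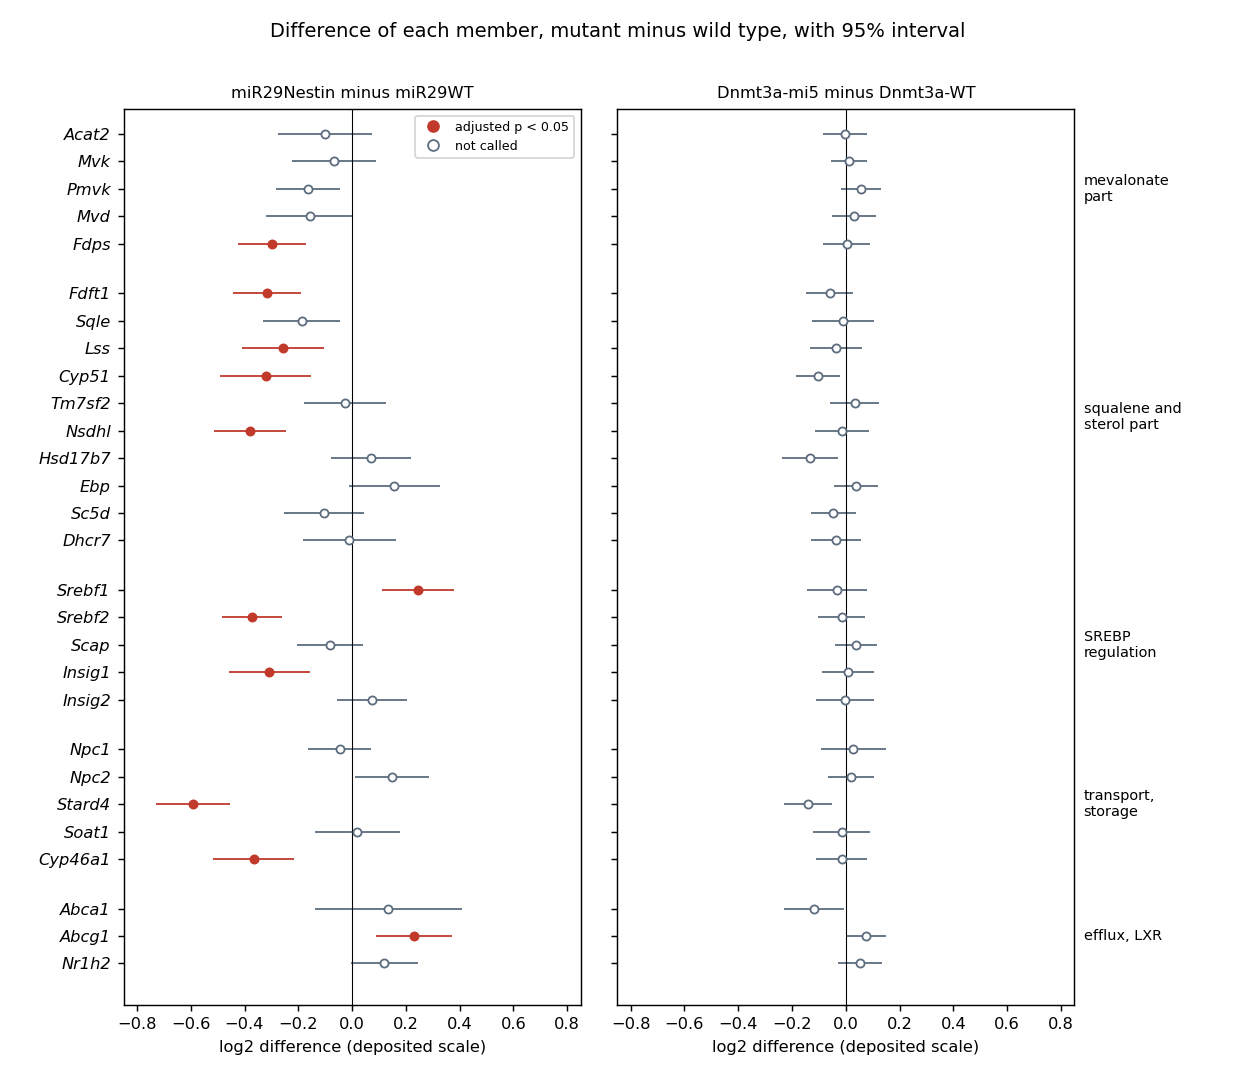
Log2 difference of each tested member, mutant minus wild type on the deposited scale, with its 95% interval from the limma fit; filled red circles are called at adjusted p under 0.05 and open circles are not called. In the miR29Nestin panel 11 members are called, 9 left and 2 right of 0; in the Dnmt3a-mi5 panel 0 are called and all differences lie between -0.14 and 0.07.

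The SREBP genes changed in opposite directions. Srebf2 (chr15:82147181-82205379, plus strand, GRCm38), whose protein acts mainly on sterol genes, had 1755, 1923 and 1823 normalised counts in miR29Nestin libraries against 2384, 2435 and 2458 in miR29WT libraries. The lowest wild-type library exceeded the highest mutant library by more than the range of either group, and Srebf2 fell by 24.4% (log2 difference -0.37, SE 0.05, adjusted p = 6.19e-04). Srebf1 (chr11:60199089-60222581, minus strand), whose proteins act mainly on fatty acid genes, had 495, 541 and 571 normalised counts in miR29Nestin libraries against 437, 413 and 428 in miR29WT libraries. All mutant libraries were higher, by 25.8% on average (log2 difference 0.25, SE 0.06, adjusted p = 0.0174), but the call was lost without miR29Nestin library 2 (0.0641), miR29WT library 2 (0.0703) or miR29WT library 3 (0.0575). The ratio of Srebf1 to Srebf2 normalised counts was 0.282, 0.282 and 0.313 in miR29Nestin libraries against 0.183, 0.170 and 0.174 in miR29WT libraries, again without overlap. Insig1 (chr5:28071363-28078662, plus strand), itself a target of SREBPs, had 526, 444 and 473 normalised counts in miR29Nestin libraries against 659, 661 and 584 in miR29WT libraries, and fell by 24.2% (log2 difference -0.31, SE 0.07, adjusted p = 0.0099). Its relative Insig2 averaged 556 ± 5.81 normalised counts in miR29Nestin libraries and 520 ± 34.9 in miR29WT libraries and was not called (log2 difference 0.07, adjusted p = 0.420). Scap, the escort, had overlapping groups (log2 difference -0.08, 95% interval -0.20 to 0.04, adjusted p = 0.335). Of these 5 regulators 2 fell, 1 rose and 2 were not called.

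**Figure D3:**
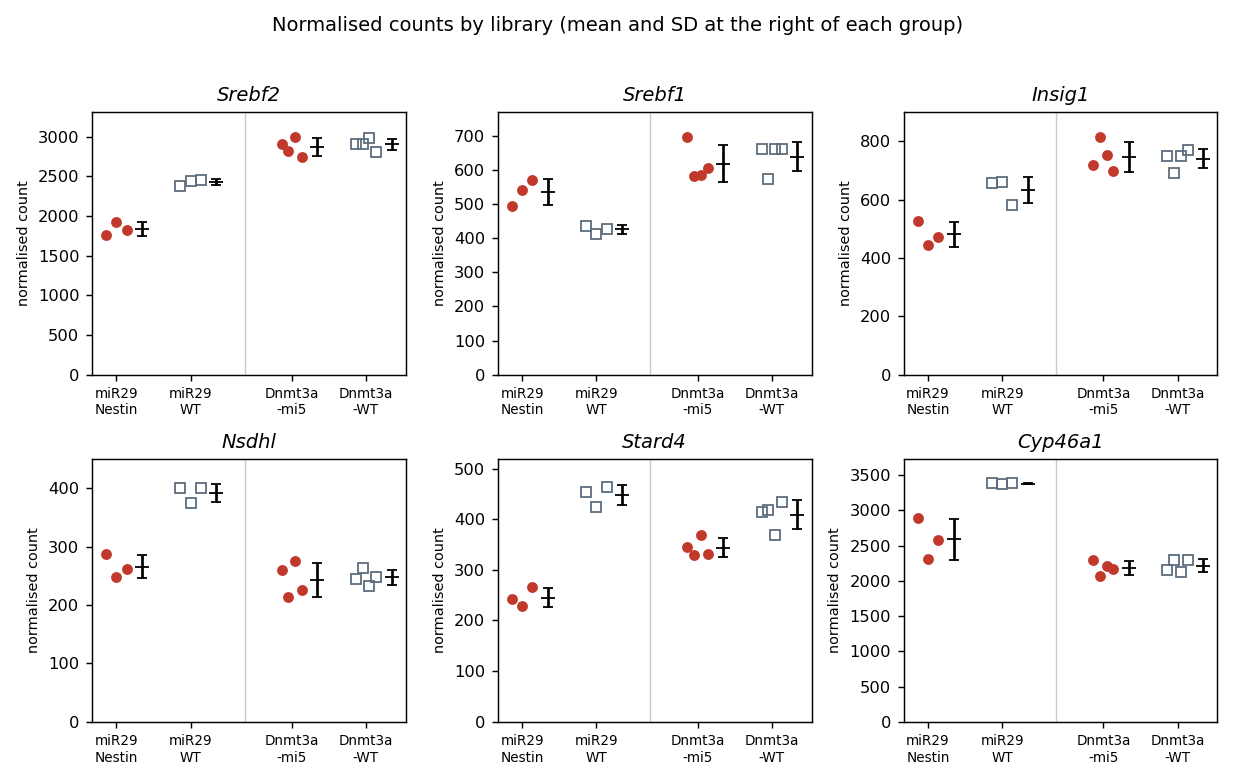
Normalised count per library (vertical axis, from 0) for 6 members in miR29Nestin, miR29WT, Dnmt3a-mi5 and Dnmt3a-WT cortex; the bar at the right of each group is its mean and SD. In the P40 groups each gene's mutant and wild-type libraries are separate, Srebf1 with the mutant libraries higher and the other 5 with them lower, while the Dnmt3a-mi5 and Dnmt3a-WT libraries overlap for all 6; levels are not comparable between the tables.

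Stard4 had the lowest log2 difference of all 28 members. Its protein carries cholesterol between membranes in the cytosol. It had 242, 229 and 266 normalised counts in miR29Nestin libraries against 454, 425 and 464 in miR29WT libraries, and fell by 45.2% (log2 difference -0.59, SE 0.06, adjusted p = 1.48e-04). Only 0.533% of all tested genes had a lower difference, and the groups were far apart. Cyp46a1 (chr12:108334381-108362234, plus strand), the neuronal enzyme that hydroxylates cholesterol so that it can leave the brain, had 2887, 2310 and 2577 normalised counts in miR29Nestin libraries against 3382, 3378 and 3381 in miR29WT libraries. The wild-type libraries were almost equal and the mutant ones scattered below them (log2 difference -0.37, SE 0.07, adjusted p = 0.0041), a decrease of 23.3%. Npc1 and Npc2, which pass cholesterol out of late endosomes, were not called; Npc1 had a difference of -0.05, and Npc2 had 954, 807 and 843 normalised counts in miR29Nestin libraries against 763, 781 and 748 in miR29WT libraries (0.15, adjusted p = 0.123), higher without overlap. Soat1, which esterifies cholesterol for storage, overlapped (0.02, adjusted p = 0.878). Per kilobase of the longest transcript, Cyp46a1 had the highest mean of the 30 members, 1223 normalised counts per kilobase in miR29Nestin libraries and 1596 in miR29WT libraries, followed in miR29WT by Srebf2 with 361 in miR29Nestin and 478 in miR29WT libraries.

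Of the efflux genes 1 rose. Abcg1, a transporter that moves cholesterol out of cells, had 1435, 1242 and 1351 normalised counts in miR29Nestin libraries against 1149, 1040 and 1166 in miR29WT libraries. The groups did not overlap, and Abcg1 was 20.1% higher (log2 difference 0.23, SE 0.06, adjusted p = 0.0297). The call was lost without miR29Nestin library 1 (0.0749) or 3 (0.0533) and without miR29WT library 2 (0.124) or 3 (0.0529). Abca1, the transporter that loads lipid-poor apolipoproteins, had 230, 340 and 439 normalised counts in miR29Nestin libraries against 294, 274 and 287 in miR29WT libraries. The mutant libraries lay on both sides of the wild type, so no direction could be given (log2 difference 0.13, SE 0.12, adjusted p = 0.492); it was called without miR29Nestin library 1 (0.30, adjusted p = 0.0316) and negative without miR29Nestin library 3 (-0.01). Nr1h2, an LXR gene, had 748, 794 and 743 normalised counts in miR29Nestin libraries against 648, 710 and 705 in miR29WT libraries, higher without overlap and not called (log2 difference 0.12, adjusted p = 0.168). Nr1h3, the other LXR gene, was under the filter, with 31.5 ± 5.82 normalised counts in miR29Nestin libraries and 31.4 ± 5.44 in miR29WT libraries.

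Of the 4 members with a TGGTGCT match, Fdft1, Cyp51 and Insig1 fell and Soat1 was not called. These are 3 of the 9 lower members, and the 6 others, Fdps, Lss, Nsdhl, Srebf2, Stard4 and Cyp46a1, had no match. Srebf1 and Abcg1, the 2 that rose, had none. Of all tested genes 10.0% were called lower, and 16.7% of those with an annotated 3′ UTR had a match. The share called lower among all genes with a match was not computed, and a link between match and fall was not tested.

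Neighbouring lipid genes in the same libraries did not all follow the sterol genes. Among 15 fatty acid genes known as SREBP targets, 6 rose and 1 fell (median log2 difference 0.14). Gpam, which starts glycerolipid synthesis, averaged 700 ± 50.1 normalised counts in miR29Nestin libraries and 436 ± 32.5 in miR29WT libraries (0.52, adjusted p = 4.11e-04), and the elongase gene Elovl5 averaged 1462 ± 131 in miR29Nestin libraries and 1035 ± 30.0 in miR29WT libraries (0.43, adjusted p = 0.0011). The desaturase gene Scd1 rose by less (0.26, adjusted p = 0.0081), and the malic enzyme gene Me1 fell, with 449 ± 18.7 in miR29Nestin libraries and 622 ± 33.7 in miR29WT libraries (-0.36, adjusted p = 0.0021). Among 11 genes of SREBP cleavage and sterol sensing, the protease gene Mbtps2 (-0.29, adjusted p = 0.0103) and the coat protein gene Sec23a (-0.24, adjusted p = 0.0181) fell. The call of Sec23a was lost without miR29WT library 2 (0.0747). Of the 11 differences 8 were positive and 3 negative (median 0.04). Of 11 genes of the isoprenoid branch, which uses farnesyl diphosphate for other products, 2 rose, Rabggta (0.43, adjusted p = 0.0018) and Dhdds (0.20, adjusted p = 0.0216), and none fell; the call of Dhdds was lost without miR29Nestin library 2 (0.0531), miR29WT library 2 (0.0923) or miR29WT library 3 (0.0635). Of 18 genes of lipoprotein receptors and carriers, Stard5 (0.51, adjusted p = 0.0012) and Clu (0.37, adjusted p = 5.63e-04) rose, and the receptor genes Vldlr (-0.47, adjusted p = 5.11e-04) and Lrp8 (-0.31, adjusted p = 0.0093) fell. In either direction 18.2% of the isoprenoid and 22.2% of the lipoprotein genes were called, near the 19.1% of all tested genes. The share was 46.7% for the fatty acid genes.

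Cell type markers also differed between the P40 groups, where 19.1% of all tested genes were called. Of the tested markers, 50% were called for excitatory neurons, 58.3% for astrocytes, 57.1% for interneurons and 66.7% for leptomeningeal fibroblasts. The shares of 15.4% for oligodendrocytes and 14.3% for their precursors were below that of all genes. All 10 excitatory neuron markers had negative differences and 5 fell, with summed normalised counts of 77880 to 84403 in miR29Nestin libraries against 91484 to 103960 in miR29WT libraries. Of 12 astrocyte markers 6 rose and 1 fell, with sums of 60541 to 65407 in miR29Nestin libraries against 54945 to 56941 in miR29WT libraries. Most of that gap was in the glutamate transporter gene Slc1a2, which averaged 42994 normalised counts in miR29Nestin libraries and 38372 in miR29WT libraries. The 12 astrocyte differences were 10 positive and 2 negative, with a median of 0.18. Of 13 oligodendrocyte markers, a cell type that makes much cholesterol for myelin, 2 rose and none fell, and the sums overlapped at 55195 to 62691 in miR29Nestin libraries and 53945 to 60695 in miR29WT libraries. Of 7 oligodendrocyte precursor markers 1 rose, with sums of 5913 to 6595 in miR29Nestin libraries against 5327 to 5951 in miR29WT libraries. Of 7 interneuron markers 2 rose and 2 fell, with overlapping sums of 10925 to 12014 in miR29Nestin libraries and 11086 to 11908 in miR29WT libraries. None of 9 microglial and 9 endothelial markers was called; 1 and 3 of them had an unadjusted p under 0.05, at or under the 33.0% of all tested genes, and their sums overlapped. Of 6 tested leptomeningeal fibroblast markers 4 rose, with sums of 2045 to 2412 in miR29Nestin libraries against 971 to 1431 in miR29WT libraries. Some marker calls were lost when 1 library was left out, in 4 of the 6 fits for Slc1a2 and for Mal, an oligodendrocyte marker that rose. The call was lost in 3 fits for Slc1a3, the astrocyte marker that fell, and in 2 for the excitatory marker Fezf2. It was lost in 1 fit each for the excitatory marker Tbr1 and the astrocyte marker Slc7a10. No marker of these lists averaged 0 in either group, and the part of the markers in the differences of the cholesterol genes was not tested.

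**Figure D4:**
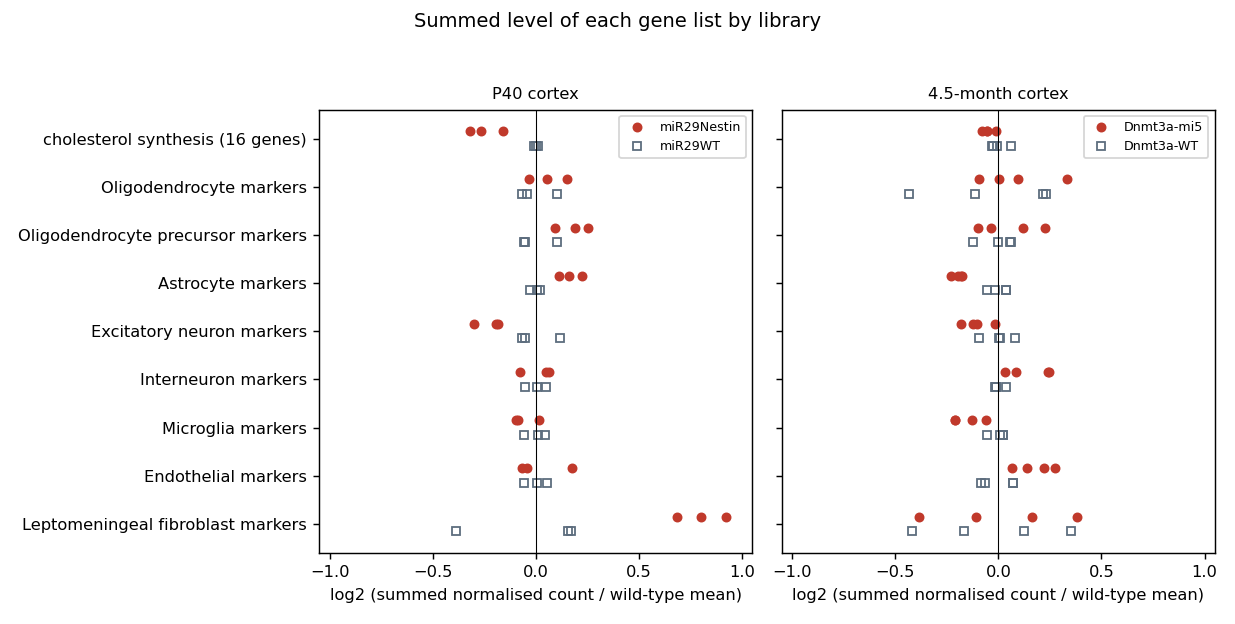
Log2 ratio of the summed normalised count of each gene list to its wild-type mean (horizontal axis), per library, for cholesterol synthesis and 8 cell type marker lists; filled circles are mutant and open squares wild-type libraries. In P40 cortex the synthesis and excitatory neuron sums of miR29Nestin libraries lie below the wild type and the astrocyte and leptomeningeal sums above it. In 4.5-month cortex the astrocyte and microglial sums of Dnmt3a-mi5 libraries lie below the wild type and the synthesis sums overlap. Slc1a2 weighs most in the astrocyte sums of both models.

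In 4.5-month cortex with the miR-29 sites of Dnmt3a mutated, 0 of the 28 members were called in either direction by limma, and 5 had an unadjusted p under 0.05. Few genes of any kind were called in this comparison, 13 of 10670 or 0.122% (0.0281% higher and 0.0937% lower), while 14.7% had an unadjusted p under 0.05; the number of calls was 85 without the term for the 2 sets of libraries and 82 without Dnmt3a-WT library 2, and no member was among them in either case. The members' differences ran between -0.14 and 0.07, with a median of -0.0071 beside 0.0018 over all genes tested, and 16 were negative and 12 positive. Groups did not overlap for 3 members, 1 lower and 2 higher, where 12.0% of all tested genes did not overlap, 6.67% lower and 5.33% higher.

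The 5 members with an unadjusted p under 0.05 were Stard4, Hsd17b7, Cyp51, Abca1 and Abcg1. Stard4 had 345, 329, 370 and 332 normalised counts in Dnmt3a-mi5 libraries against 414, 418, 369 and 435 in Dnmt3a-WT libraries. All but 1 wild-type library lay above all mutant ones (log2 difference -0.14, SE 0.04, adjusted p = 0.175). Hsd17b7 had 226, 272, 268 and 238 normalised counts in Dnmt3a-mi5 libraries against 323, 284, 327 and 271 in Dnmt3a-WT libraries, with overlap (-0.13, SE 0.05, adjusted p = 0.240). Cyp51 had 671, 698, 736 and 704 normalised counts in Dnmt3a-mi5 libraries against 773, 821, 775 and 742 in Dnmt3a-WT libraries, apart by a small gap (-0.10, SE 0.04, adjusted p = 0.246). Abca1 had 611, 462, 550 and 535 normalised counts in Dnmt3a-mi5 libraries against 626, 606, 609 and 602 in Dnmt3a-WT libraries (-0.12, SE 0.05, adjusted p = 0.315). Its mutant libraries overlapped the wild type through library 1 only. Abcg1 had 1049, 1048, 1002 and 1018 normalised counts in Dnmt3a-mi5 libraries against 958, 926, 984 and 972 in Dnmt3a-WT libraries, higher without overlap (0.07, SE 0.03, adjusted p = 0.334).

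For the other members that were called in P40 cortex, the intervals in this model included 0. Srebf2 had 2911, 2818, 3000 and 2745 normalised counts in Dnmt3a-mi5 libraries against 2906, 2904, 2989 and 2812 in Dnmt3a-WT libraries, with full overlap (-0.02, 95% interval -0.10 to 0.07). Srebf1 averaged 618 ± 54.4 normalised counts in Dnmt3a-mi5 libraries and 640 ± 43.7 in Dnmt3a-WT libraries (-0.03, -0.14 to 0.08). The intervals were -0.09 to 0.10 for Insig1, -0.11 to 0.09 for Nsdhl, -0.08 to 0.09 for Fdps, -0.15 to 0.03 for Fdft1, -0.13 to 0.06 for Lss and -0.11 to 0.08 for Cyp46a1, and the log2 decrease that each had in miR29Nestin cortex, on the scale of its own table, lay below the interval. A gene without counts has 7.63 log2 units in this table and 6.59 in the P40 table, so log2 differences and intervals are shrunk more here. In normalised counts the mutant differed by -1.2% for Srebf2, -3.4% for Srebf1, 0.8% for Insig1 and -1.6% for Nsdhl. The values were 0.3% for Fdps, -5.4% for Fdft1, -4.1% for Lss and -1.2% for Cyp46a1. Whether the models differ was not tested, since their tables, ages and kits differ. Summed synthesis counts overlapped, at 5654, 5755, 5937 and 5765 in Dnmt3a-mi5 libraries against 5875, 6236, 5947 and 5861 in Dnmt3a-WT libraries. None of the 15 fatty acid, 11 SREBP machinery, 10 isoprenoid and 17 lipoprotein genes tested here was called. Of them 0, 2, 0 and 6 had an unadjusted p under 0.05, beside 14.7% of all tested genes. The 2 machinery genes were Mbtps2 (-0.11) and Sec23a (-0.10), both lower without overlap. Of the 6 lipoprotein genes 3 had negative differences, among them Vldlr and Lrp8 (-0.09 each). Mbtps2, Sec23a, Vldlr and Lrp8, not called here, were called lower in P40 cortex. The rest of the 6 lipoprotein genes, Mylip, Apod, Pltp and Lcat, were not called in P40 cortex. Of the marker lists, 1 microglial gene, Cx3cr1, fell, with 487 ± 12.0 normalised counts in Dnmt3a-mi5 libraries and 629 ± 22.2 in Dnmt3a-WT libraries (-0.24, adjusted p = 0.0310); the call was lost in 7 of the 8 fits without 1 library, all but the one without Dnmt3a-WT library 2, with adjusted p of 0.0743 to 0.160. Microglial marker sums were 3776 to 4198 in Dnmt3a-mi5 libraries against 4207 to 4443 in Dnmt3a-WT libraries, without overlap. Astrocyte marker sums were 57619 to 59855 in Dnmt3a-mi5 libraries against 65020 to 69311 in Dnmt3a-WT libraries, and most of that gap was in the glutamate transporter gene Slc1a2, which averaged 41632 normalised counts in Dnmt3a-mi5 libraries and 49580 in Dnmt3a-WT libraries and was not called (-0.25, adjusted p = 0.126). The 12 astrocyte markers had 6 negative and 6 positive differences, with a median of -0.0030. Excitatory neuron sums overlapped at 76392 to 85791 in Dnmt3a-mi5 libraries and 81072 to 91672 in Dnmt3a-WT libraries.

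Promoters were searched because the members share regulators: SREBPs bind sterol response elements and act beside NF-Y, which binds CCAAT. Windows of 250 bases before to 50 after the start site (RefSeq, GRCm38.p6) matched 24 of the 30 members; Fdps, Fdft1, Sqle, Npc1, Stard4 and Abcg1, among them 4 of the 11 members called in P40 cortex, had no window and were not searched, so the counts below do not cover them. CCAAT stood, on either strand, in 19 of 24 members against 41.1% of 27025 genes and 42.9% of the tested genes. The sterol element TCACNCCAC was in 0 of 24 members and in 1.44% of genes, and its shorter form TCACNCCA was in 1 of 24, Srebf2, and in 4.97% of genes. The Srebf2 element is shown, followed by the CCAAT boxes of Srebf2, Insig1, Lss and Cyp51, on the gene's strand, with the match in capitals (ATTGG is CCAAT on the opposite strand).
Srebf2 sterol element: tgacgcaccaTCACCCCAtgagccgctt
Srebf2 CCAAT: tcgcgcgccgATTGGctaatgcaag
Insig1 CCAAT: ccctcctcccATTGGctccggcggc
Lss CCAAT: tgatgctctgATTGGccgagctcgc
Cyp51 CCAAT: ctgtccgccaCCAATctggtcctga
These lie at chr15:82147097-82147124 (plus strand) and chr15:82147124-82147148 (plus) for Srebf2, chr5:28071186-28071210 (plus) for Insig1, chr10:76531533-76531557 (plus) for Lss and chr5:4104712-4104736 (minus) for Cyp51. Srebf1, which rose, held CCAAT too. A match is a description and no binding was measured.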

How the data were processed

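Polyadenylated cortex RNA was sequenced as stranded paired-end libraries, per the labels' protocols. The authors deposited 1 table per model of log2 values from the variance-stabilising transformation of DESeq2. Other tools listed in the submitters' processing notes are cutadapt, STAR and Salmon, with builds hg19 and mm9; versions and roles are not given in the sources used here. Normalised counts are these values transformed back with the closed form of the transformation. Of the Dnmt3a libraries, 2 sets of 4 had gene means equal within 5.5e-09, against 0.538 or more for any other such split, so an additive effect had been removed, and its normalised counts are approximate. The Dnmt3a column names give the group but repeat replicate names, so those libraries are numbered by column.

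Each table was fitted with limma 3.58.1 (R 4.3.3; trend on, Benjamini-Hochberg adjustment over all genes tested, called at adjusted p under 0.05), with a term for the 2 sets in the Dnmt3a table. Genes needed a mean at least 1 log2 unit above the lowest value. The script was checked on simulated data. Alternatives were no filter, a filter of 2 log2 units, median centring, quantile normalisation, log2(normalised count + 1), a robust variance prior, no trend, leaving out each library, a replicate block and a sex term (P40), and no set term (Dnmt3a). Deviations from the group means correlated at 0.335, 0.204 and 0.186 between same-numbered P40 libraries (pairing from the replicate numbers in the labels). Between differently numbered libraries the correlations ran between -0.327 and 0.178. The labels do not say what the numbers share.

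The members and lists were chosen with earlier results of these data known. All members were described; from the further lists, up to 4 called genes with the smallest p per list and table were named, and 1 of these is not reported here. Each library is a separate mouse as far as the labels say. The p-values set a group difference against the spread between mice, with a variance that limma moderates over genes. Precision is limited by 3 or 4 libraries per group.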

Additional observations from a re-analysis of the deposited data

Results flagged for a closer look

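Each tested member and Dnmt3a were looked at in both 4.5-month groups of 4 libraries, 58 cases in all, for a library far from the other 3 by Dixon's ratio of its gap to the range of the group. Chance alone sets a library apart in about 1 of 20 cases, and 4 were found. In Dnmt3a-mi5 library 4, Fdps was high at 454 normalised counts against 400 to 407 in the others (0.858), and Lss was low at 374 against 434 to 439 (0.920). In Dnmt3a-WT library 2, Sqle was high at 814 against 657 to 676 (0.869), and Srebf1 was low at 574 against 661 to 663 (0.987). Pmvk was lower in every miR29Nestin library than in any miR29WT library (log2 difference -0.16) and higher in every Dnmt3a-mi5 library than in any Dnmt3a-WT library (0.06); it was called in neither table, and the difference between the models was not tested.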

How the results depend on the processing

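The number of members called lower in P40 cortex was 9 or 10 under the 9 alternatives that keep all libraries, and 7 to 9 without 1 library; the number called higher was 2 with all libraries and 0 to 2 without 1. With the replicate block, Sqle became called and no other member's call changed; over all genes the block gave 3037 calls beside 2289. Calls over all genes ran between 1384 and 2313 without 1 library. In 4.5-month cortex, 0 members were called under each alternative run; over all genes 85 were called without the set term beside 13 with it, since the removed effect is then counted as free, and 1 to 82 without 1 library. No paired analysis was possible because the Dnmt3a columns carry no distinct replicate numbers. With the sex term, Dhcr7 (0.050) and Soat1 (-0.019), neither called, changed sign.

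No member changed sign without 1 library in a comparison that called it. In P40 cortex their log2 differences without 1 library ran between -0.077 and 0.00069 for Tm7sf2, -0.073 and 0.057 for Dhcr7, -0.037 and 0.067 for Soat1, and -0.014 and 0.30 for Abca1. In 4.5-month cortex, where none was called, they ran between -0.026 and 0.023 for Acat2, -0.028 and 0.025 for Fdps, -0.037 and 0.049 for Sqle, -0.064 and 0.0037 for Lss, -0.050 and 0.022 for Nsdhl, -0.039 and 0.0066 for Srebf2, -0.029 and 0.033 for Insig1, -0.057 and 0.035 for Insig2, -0.010 and 0.066 for Npc1, -0.042 and 0.027 for Soat1, and -0.040 and 0.012 for Cyp46a1. Precision is limited by 3 or 4 libraries per group, and read depth of the 4.5-month libraries is unknown.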
